A study of Bos taurus with 18 samples.

Results

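Milk fat in cows is built partly from fatty acids that the mammary gland makes itself, and 5 genes of that route, ACSS2, ACACA, FASN, SCD and SREBF1, were followed in cells collected from the milk of sick and healthy dairy cows. The members were the 9 of 24016 tested probe sets whose annotation names exactly 1 of these genes: 1 each for FASN, ACSS2 and SCD, 2 for ACACA and 4 for SREBF1. The series held 18 Affymetrix bovine genome arrays, 1 per cow, in 3 groups of 6: cows with mastitis (inflammation of the udder), cows with endometritis (inflammation of the uterus lining) and healthy cows. The design asks how milk cells differ when the disease lies in the udder, and when it lies elsewhere in the body, each set against health.

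All groups were dairy cows kept on farms or seen in veterinary clinics, with no genotype or treatment named in the labels. Cows with mastitis and cows with endometritis were in lactation 1 to 8 and were sampled 10 to 220 days after calving. Healthy cows were described as 2 to 4 years old, with no clinical signs and fewer than 100000 somatic cells per ml of milk. Most of them were in lactation 1 to 3, with 1 cow in lactation 4 and 1 in lactation 8, and most were sampled 10 to 100 days after calving. Stage of lactation and parity may therefore differ between the groups, and their part in any difference was not tested. Lactation 8 is hard to reconcile with an age of 2 to 4 years, and the age of each cow was not used here. The somatic cell count, which is the number of all cells in a volume of milk, is given for the healthy cows, and values for the sick cows were not used here.

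In ruminants the rumen microbes turn feed into acetate, and the udder uses this acetate as the main carbon for fatty acid synthesis. ACSS2 (cytosolic acetyl-CoA synthetase) activates acetate to acetyl-CoA, ACACA (acetyl-CoA carboxylase alpha) carboxylates acetyl-CoA to malonyl-CoA, and FASN (fatty acid synthase) joins these units into saturated chains. SCD (stearoyl-CoA desaturase) then places a double bond in the chain, and SREBF1 encodes SREBP1, a transcription factor known to raise transcription of these enzymes in mammary epithelial cells.

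Values are log2 normalised intensities as deposited, so that a difference of 1 is a doubling of intensity. The table ran from 2.43 to 14.23 with a median of 2.55. Because most probe sets lay at this floor, a probe set that did not exceed 2.55 on any of the 6 arrays of a group was taken as at background in that group. Levels of different probe sets were not compared with each other, since each probe set binds with its own strength. A difference was called at a limma p-value under 0.05 after Benjamini-Hochberg adjustment over all 24016 probe sets.

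Milk holds shed mammary epithelial cells beside white blood cells, and the marker genes of these cells set the mastitis arrays apart from the other 2 groups, while endometritis and healthy arrays overlapped. The mean of 9 epithelial markers spanned 2.56 to 2.92 on mastitis arrays, 3.29 to 5.49 on endometritis arrays and 4.09 to 5.68 on healthy arrays. Of these 9 markers, 7 were called lower in mastitis than in healthy milk cells. KRT8 was at background in every group and CLDN3 in the mastitis group. The mean of 6 milk protein genes spanned 6.60 to 11.4 in mastitis, 12.3 to 13.6 in endometritis and 13.0 to 13.6 in healthy milk cells, and all 6 were called lower in mastitis than in health. The mean of 8 neutrophil markers spanned 8.41 to 9.90 in mastitis, 4.17 to 6.80 in endometritis and 4.77 to 6.65 in healthy milk cells, and 7 of the 8 were called higher in mastitis than in health. For macrophage, T cell and B cell markers the ranges of all 3 groups overlapped. The mean of 7 macrophage markers spanned 5.85 to 7.99 in mastitis, 4.37 to 8.05 in endometritis and 4.21 to 7.10 in health. That of 9 T cell markers spanned 2.65 to 4.61 in mastitis, 3.30 to 5.72 in endometritis and 2.80 to 4.82 in health, and that of 3 B cell markers 2.47 to 3.37 in mastitis, 2.47 to 2.64 in endometritis and 2.45 to 2.96 in health. BLK, a kinase of B cells, was the only gene of these 3 lists called by limma at its brightest probe set in mastitis against health, higher by 0.53. The macrophage markers CD14 and MSR1 (MSR1 named after its values were seen) each had 1 called dimmer probe set. In mastitis against health that of CD14 was higher and that of MSR1 lower. At the brightest probe sets, 1 macrophage marker had an unadjusted limma p under 0.05. For 4 adipocyte markers, genes of another cell type that uses this pathway, the mean spanned 2.51 to 2.68 in mastitis, 2.47 to 2.55 in endometritis and 2.49 to 2.52 in health, with ADIPOQ and LEP at background in all 3 groups. LIPE, the hormone-sensitive lipase of that list, averaged 3.01 ± 0.29 in mastitis and 2.73 ± 0.05 in health (SD, n = 6 each) and did not pass (limma adjusted p = 0.0862). The part of any cell type in the enzyme values was not tested.

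In milk cells of cows with mastitis, 3 enzymes of the route were far below their level in healthy cows: ACSS2 was 53.2-fold lower, FASN 49.1-fold lower and SCD 72.3-fold lower. Of the 9 member probe sets, 3 were called lower and 0 higher in mastitis against health, and these 3 were also those whose groups did not overlap. Over all probe sets, 9.35% were called lower and 10.2% higher in that comparison, and 5.84% lay lower without overlap. SREBF1 and ACACA differed by less and did not pass. In these bulk samples, fewer epithelial cells and less RNA per epithelial cell cannot be told apart.

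ACSS2 had a lowest, median and highest value of 2.77, 3.23 and 4.09 in mastitis, 5.14, 8.53 and 9.92 in endometritis and 6.97, 9.26 and 10.45 in healthy milk cells. Every mastitis array lay below every array of the other groups, and the endometritis and healthy ranges overlapped. Its mean was 3.4 ± 0.50 in mastitis and 9.13 ± 1.30 in health (SD, n = 6 each), a difference of -5.73 ± 0.71 (SE) with a 95% interval of -7.24 to -4.22 and a limma adjusted p of 8.67e-05. On the lowest mastitis array ACSS2 stood only slightly above the median of the table, so the floor may limit how far a fall in this enzyme can be read.

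ACACA, the carboxylase, was close to the floor in every group. The brighter of its 2 probe sets lay between 2.49 and 2.54 on all 6 mastitis arrays, which is background. In endometritis its lowest, median and highest values were 2.49, 2.77 and 3.30, with 3 of 6 arrays above the table's median. In healthy milk cells they were 2.54, 2.81 and 3.21, with 4 of 6 arrays above it. The groups overlapped, and the difference of -0.30 ± 0.14 between mastitis and health had a limma adjusted p of 0.183. The dimmer probe set exceeded the median of the table on 2 of 18 arrays, and its difference was -0.05 ± 0.04. The 95% interval at the brighter probe set was -0.61 to 0.01, which includes no change. With these probe sets a change of ACACA in mastitis could not be measured, because the signal had little room to fall.

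FASN, the synthase itself, had a lowest, median and highest value of 4.51, 5.40 and 5.76 in mastitis, 7.32, 10.86 and 11.89 in endometritis and 10.33, 10.70 and 11.64 in healthy milk cells. The mastitis range ended well below the lowest array of either other group, and FASN remained above the median of the table on all 6 mastitis arrays. Mean levels were 5.28 ± 0.47 in mastitis and 10.90 ± 0.53 in health (SD, n = 6 each). The difference was -5.62 ± 0.59 with a 95% interval of -6.86 to -4.37 and a limma adjusted p of 3.01e-05.

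SCD, the desaturase, had a lowest, median and highest value of 3.52, 5.02 and 5.27 in mastitis, 6.57, 10.23 and 11.58 in endometritis and 8.78, 11.48 and 11.53 in healthy milk cells. All mastitis arrays again lay below all others. Its mean was 4.68 ± 0.71 in mastitis and 10.85 ± 1.11 in health (SD, n = 6 each). The difference of -6.18 ± 0.73, with a 95% interval of -7.74 to -4.61 and a limma adjusted p of 6.34e-05, was the largest among the 5 genes in mastitis against health. The intervals of FASN, ACSS2 and SCD overlapped one another.

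SREBF1, the regulator, was read mainly at the brightest of its 4 probe sets. That probe set had a lowest, median and highest value of 5.89, 6.66 and 7.02 in mastitis, 7.44, 7.78 and 8.01 in endometritis and 6.56, 7.01 and 7.42 in healthy milk cells. The mastitis and healthy ranges overlapped, while every endometritis array lay above both, by a margin of only 7.44 against a highest healthy value of 7.42. Means were 6.58 ± 0.43 in mastitis and 7.0 ± 0.29 in health (SD, n = 6 each). The difference of -0.42 ± 0.18, a 95% interval of -0.81 to -0.04, did not pass (limma adjusted p = 0.128). Under quantile normalisation it was -0.67 with a limma adjusted p of 0.0481. The other 3 probe sets hardly moved. The second brightest was above the median of the table on all 18 arrays and stayed between 4.36 and 4.87. The third lay between 2.44 and 2.75, and the dimmest read 2.43 on all 18 arrays.

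**Figure D1:**
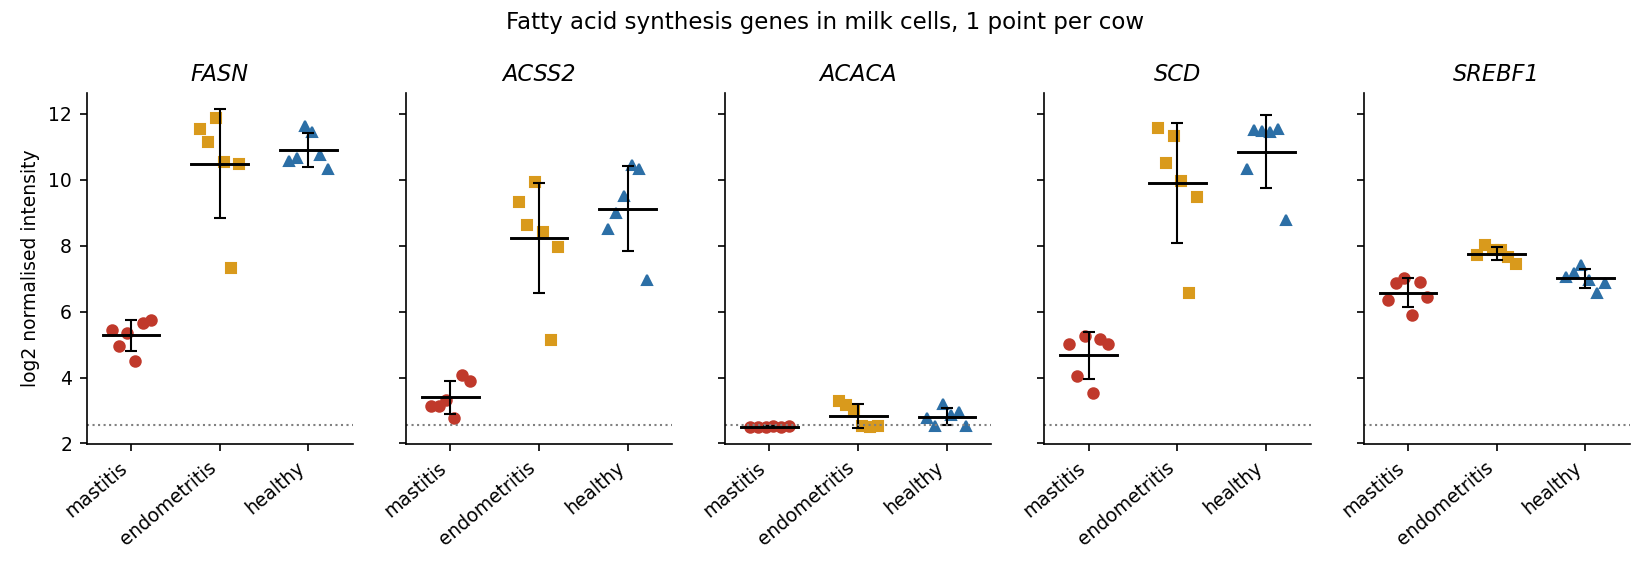
Log2 normalised intensity of the 5 genes (y axis) in mastitis, endometritis and healthy milk cells, with 1 point per cow, the bar at the mean, whiskers of 1 SD and a dotted line at the table's median of 2.55. FASN, ACSS2 and SCD are lower on all 6 mastitis arrays than on any other array, SREBF1 is higher on all 6 endometritis arrays, and ACACA lies along the dotted line.

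In log2 intensity, the regulator and 3 of its enzymes moved by unequal amounts in mastitis, with SREBF1 read at its brightest probe set. On each array the SREBF1 value was subtracted from the enzyme value, and these differences were compared between groups by exact two-sided permutation of the 6 against 6 arrays, with Benjamini-Hochberg adjustment over 12 tests. Relative to SREBF1, FASN was lower in mastitis than in health by a further -5.20, ACSS2 by -5.31 and SCD by -5.75, each with an exact p of 0.00216, the smallest that 924 arrangements can give, and an adjusted p of 0.00433. For ACACA the difference was 0.12 with an exact p of 0.60, and its floor in mastitis limits that value. The values of FASN, ACSS2 and SCD follow from the differences of the single genes given above and are no separate result. Whether these probe sets respond alike to a like change of RNA was not tested.

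In mastitis epithelial markers were lower, as the enzymes were, and neutrophil markers were higher. The members were therefore also read against epithelial markers on the same array. The epithelial mean itself was lower by -2.12 in mastitis against health. With it subtracted from every probe set, FASN differed by -3.50 ± 0.40 (limma adjusted p = 3.96e-08), ACSS2 by -3.61 ± 0.46 (limma adjusted p = 2.63e-07) and SCD by -4.06 ± 0.46 (limma adjusted p = 3.85e-08), while 0.483% of all probe sets were called lower on this scale. FASN less the epithelial mean spanned 1.75 to 3.14 in mastitis and 5.63 to 6.50 in health, which do not overlap. An exact permutation test of these relative values, added after seeing the data, gave a p of 0.00216 for each of these 3 enzymes. SREBF1 was higher on the same scale, by 1.70 ± 0.38 (limma adjusted p = 0.000113), and ACACA by 1.82 ± 0.33 (limma adjusted p = 8.62e-06). Since 95.5% of all probe sets were called higher on it, those 2 directions match nearly the whole array. Most epithelial markers stood near the floor in mastitis, KRT8 was at background in every group, and ACSS2 itself came close to the floor. KRT19, the brightest of the 9 in health at 8.71, differed by -5.67 ± 0.69 (limma adjusted p = 7.86e-05). The next largest difference was that of EPCAM, -3.87 ± 0.55 (limma adjusted p = 0.00022). Dim markers have little room to fall, so the fall of the epithelial mean may be understated. Both the presence and the size of these relative differences are therefore uncertain, and the part of the floor was not tested.

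Milk protein genes gave another reading. Their mean was lower by -5.19 in mastitis against health. Relative to it, FASN differed by -0.43 ± 0.68 (limma adjusted p = 0.531), ACSS2 by -0.54 ± 0.68 (limma adjusted p = 0.427) and SCD by -0.99 ± 0.68 (limma adjusted p = 0.149). The exact permutation p-values were 0.647 for FASN, 0.621 for ACSS2 and 0.338 for SCD. FASN less the milk protein mean spanned -5.97 to -0.96 in mastitis, against -2.88 to -1.96 in health, so the mastitis cows spread on both sides of the healthy range. SREBF1 was higher on this scale by 4.77 ± 0.68, where 99.8% of all probe sets were called higher and 0.0291% lower. Among the milk proteins, PAEP (beta-lactoglobulin) averaged 8.99 ± 1.65 in mastitis and 14.15 ± 0.04 in health (SD, n = 6 each), beside a table maximum of 14.23, so its healthy level has little room above it. The fall of the milk protein mean may then be understated, and the relative differences are uncertain in size.

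**Figure D2:**
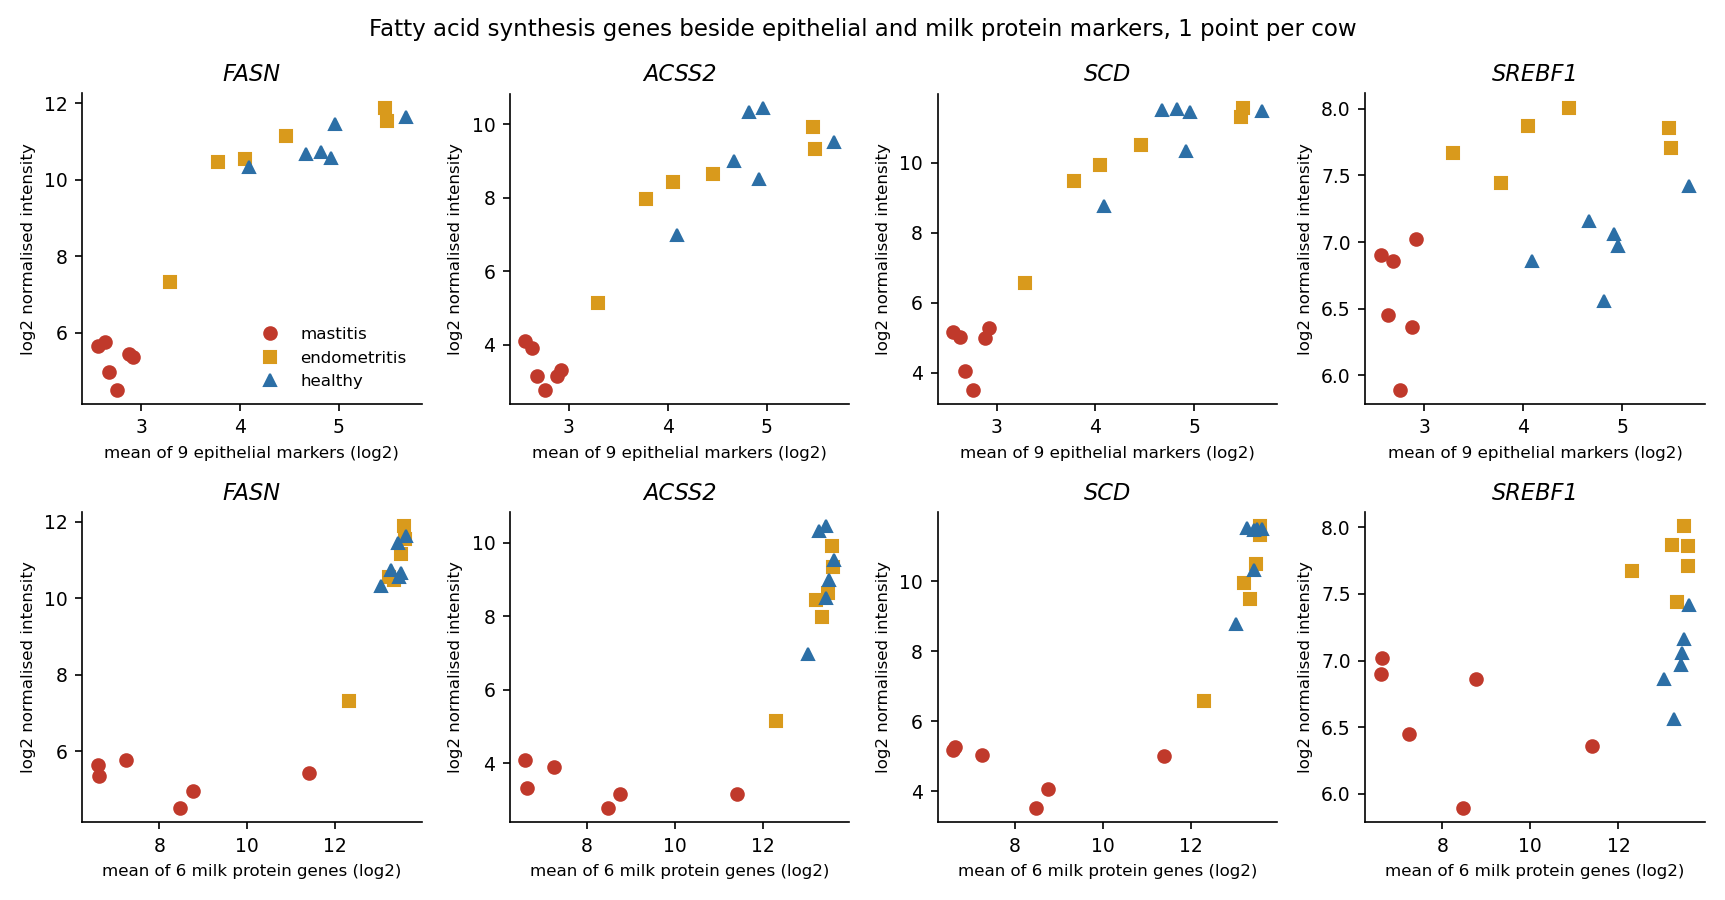
Log2 normalised intensity of FASN, ACSS2, SCD and SREBF1 (y axis) against the mean of 9 epithelial markers (upper row) and of 6 milk protein genes (lower row) on the same array, with 1 point per cow. Among endometritis cows FASN was 11.54 at an epithelial mean of 5.49 and 7.32 at one of 3.29, while all mastitis cows had an epithelial mean of at most 2.92 and milk protein means of up to 11.4.

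In endometritis the enzymes did not differ from health by more than the spread between cows, while SREBF1 ran higher without passing. In this comparison 0 of 9 member probe sets were called by limma and 1 had an unadjusted p under 0.05. Over the whole array 0.0% were called, 0 of 24016, and 4.36% had an unadjusted p under 0.05. FASN averaged 10.49 ± 1.65 in endometritis and 10.90 ± 0.53 in health (SD, n = 6 each), a difference of -0.41 ± 0.59 with a 95% interval of -1.66 to 0.84. ACSS2 averaged 8.24 ± 1.67 in endometritis, and differed by -0.89 ± 0.71 with an interval of -2.40 to 0.62. SCD averaged 9.90 ± 1.81 in endometritis, and differed by -0.95 ± 0.73 with an interval of -2.51 to 0.61. ACACA differed by 0.03 ± 0.14. Adjusted limma p-values were 0.99 for FASN, 0.925 for ACSS2 and SCD, and 1.0 for ACACA.

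SREBF1 averaged 7.76 ± 0.20 in endometritis and 7.0 ± 0.29 in health (SD, n = 6 each). The difference was 0.76 ± 0.18 with a 95% interval of 0.37 to 1.14, or 1.69-fold. All 6 endometritis cows were above the healthy mean and above every healthy cow, as were 0.0999% of all probe sets on the array. Its limma unadjusted p was 0.000746 and its limma adjusted p 0.833, so it is not called. None of the other 3 SREBF1 probe sets showed such a gap, with differences of 0.04, 0.03 and 0.00. Averaged over all 4 probe sets the difference was 0.21, with a limma adjusted p of 0.919.

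A single cow set much of the spread of the enzymes in endometritis. On endometritis array 5, FASN read 7.32 against 10.47 to 11.89 on the other 5, ACSS2 read 5.14 with the next lowest at 7.97, and SCD read 6.57 with the next lowest at 9.49. The same array had the lowest epithelial mean of its group, 3.29, the lowest milk protein mean, 12.3, and the highest macrophage mean, 8.05. SREBF1 on it was 7.67, inside the range of the other endometritis arrays. The part of these markers in the enzyme values was not tested. Without this array the difference from health became 0.22 for FASN, -0.27 for ACSS2 and -0.28 for SCD, none of them called.

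The change of each enzyme relative to SREBF1 in endometritis was -1.17 for FASN (exact permutation p = 0.0584, adjusted p = 0.0701), -1.65 for ACSS2 (exact permutation p = 0.0866, adjusted p = 0.0945) and -1.71 for SCD (exact permutation p = 0.0563, adjusted p = 0.0701). These 3 did not pass. That of ACACA was -0.73 (exact permutation p = 0.00433, adjusted p = 0.00742), which passed, but it was -0.18 with an adjusted p of 0.163 when all probe sets of each gene were averaged. Without endometritis array 5 the FASN value was -0.55, and leaving out endometritis array 1 or 3 or applying quantile normalisation brought FASN past the threshold. For SCD the same held when endometritis array 1, endometritis array 3 or healthy array 6 was left out, and for ACSS2 when healthy array 6 was left out.

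Relative to the epithelial mean, which was lower by -0.43 in endometritis against health, 0 of the 5 genes were called by limma, beside 0.00416% of all probe sets called lower and 0.0% called higher. FASN differed by 0.02 ± 0.40, ACSS2 by -0.46 ± 0.46, SCD by -0.51 ± 0.46 and SREBF1 by 1.19 ± 0.38 (limma adjusted p = 0.411). The unadjusted exact permutation p for SREBF1 was 0.0195, and it was the only one of the 5 under 0.05. With array weights 2 of the 5 genes were called lower and 3 higher on this scale. The share of all probe sets called under that setting is not given here, so this count is not read as a result about the members.

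Set directly against endometritis, mastitis milk cells had less FASN, ACSS2 and SCD and also less SREBF1. Of the 9 member probe sets, 4 were called lower and 0 higher, while 6.55% of all probe sets were called lower and 7.99% higher. The same 4 did not overlap between the groups, beside 3.91% of all probe sets that lay lower without overlap. The difference was -5.21 ± 0.59 for FASN (limma adjusted p = 5.45e-05), 36.9-fold, and -4.84 ± 0.71 for ACSS2 (limma adjusted p = 0.000387), 28.7-fold. SCD differed by -5.23 ± 0.73 (limma adjusted p = 0.000281), 37.5-fold. SREBF1 fell by 1.18 ± 0.18 on the log2 scale (limma adjusted p = 0.000551), 2.26-fold, with a 95% interval of -1.56 to -0.79, at 1 of its 4 probe sets, and by 0.30 when all 4 were averaged. ACACA differed by -0.33 ± 0.14 (limma adjusted p = 0.162). Mastitis is part of both this comparison and the one with health, and the healthy arrays are shared by both comparisons with health, so the values of the 3 comparisons are not independent.

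Relative to SREBF1, 3 enzymes were still lower in mastitis than in endometritis, by -4.03 for FASN, -3.66 for ACSS2 and -4.05 for SCD (exact permutation p = 0.00216, adjusted p = 0.00433 for each). These 3 values likewise follow from the differences of the single genes. ACACA was 0.85 higher relative to SREBF1 (exact permutation p = 0.00649, adjusted p = 0.00974), with ACACA at background in mastitis, and the value was 0.11 with an adjusted p of 0.319 when all probe sets of each gene were averaged. Relative to the epithelial mean, lower by -1.68 in mastitis against endometritis, FASN differed by -3.52 ± 0.40, ACSS2 by -3.16 ± 0.46 and SCD by -3.54 ± 0.46 (limma adjusted p = 7.5e-08, 4.23e-06 and 6.6e-07), beside 0.437% of all probe sets called lower and 92.4% called higher. SREBF1 differed by 0.51 ± 0.38 on that scale (limma adjusted p = 0.198). KRT19 differed most among the epithelial markers, by -4.71 ± 0.69, and the floor limits these relative differences as well. Relative to the milk protein mean the differences were -0.15, 0.22 and -0.17 for FASN, ACSS2 and SCD, and none of the 3 was called, beside 0.0167% of all probe sets called lower and 99.8% called higher.

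**Figure D3:**
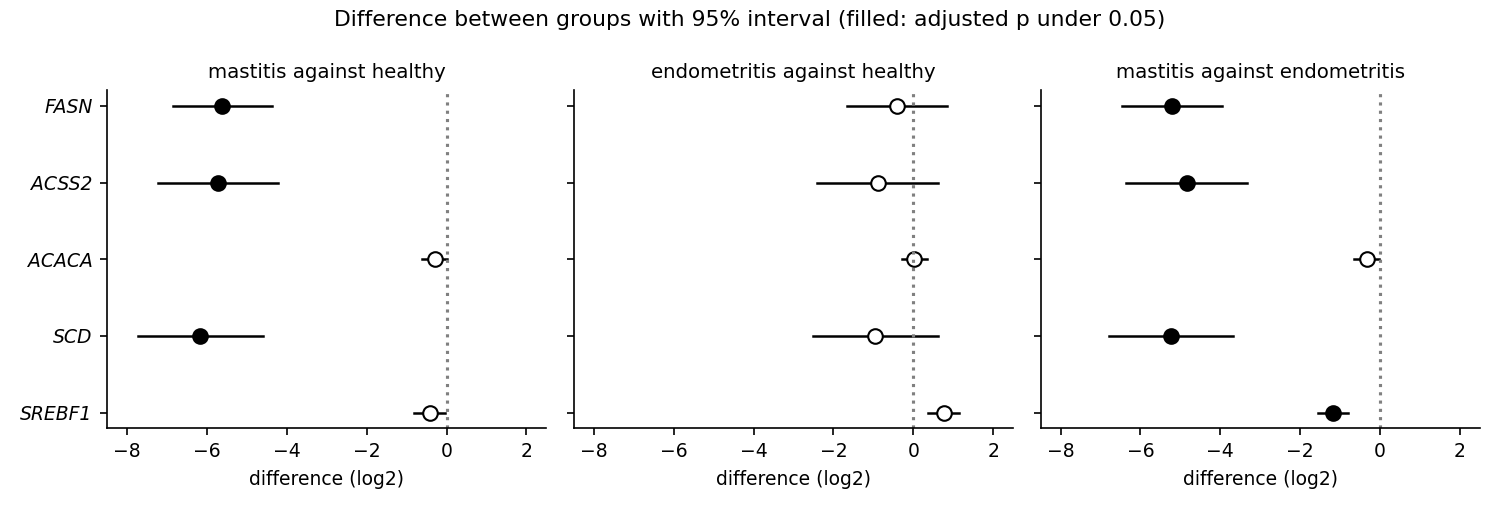
Difference in log2 normalised intensity (x axis) of each of the 5 genes in mastitis against health, endometritis against health and mastitis against endometritis, with bars for the 95% interval and filled points where the limma adjusted p was under 0.05. FASN, ACSS2 and SCD lie between -6.18 and -4.84 in both mastitis panels, and their intervals cross 0 in endometritis against health.

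A measure of RNA quality and the hybridisation controls were also read in each group. The gap between the GAPDH control at the 3′ end of the transcript and that at its 5′ end, which grows as RNA is degraded, had a lowest, median and highest value of 0.08, 0.39 and 0.71 in mastitis, 0.30, 0.51 and 1.05 in endometritis and 0.35, 0.84 and 1.52 in health. The ranges overlapped, the gap was not tested between groups, and its part in the enzyme values was not tested beyond the following fit. With this gap as a covariate, FASN was lower in mastitis against health by -4.98 (limma adjusted p = 0.00123). The mean of the hybridisation controls, RNAs added in fixed amounts, spanned 7.96 to 8.83 in mastitis, 7.80 to 9.02 in endometritis and 8.14 to 9.43 in health. With each array scaled to them, FASN differed by -5.36 (limma adjusted p = 1.07e-07).

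Within a group, FASN, ACSS2 and SCD varied together among the endometritis cows. Over 6 arrays, r was 0.99 for FASN with ACSS2, for FASN with SCD and for ACSS2 with SCD, with Spearman's rho of 1.0, 0.94 and 0.94 for these pairs. Correlation with the epithelial mean was 0.83 for FASN, 0.87 for ACSS2 and 0.89 for SCD, with rho of 0.94, 0.94 and 1.0. These 6 of 40 correlations passed for Pearson's r by exact permutation with Benjamini-Hochberg adjustment over the 40 (adjusted p = 0.0278 for each). With any 1 of the endometritis arrays left out, 0 of 40 passed, over 5 arrays in that group, where the smallest exact p is 0.00833. The unadjusted exact p of r was 0.00139 for FASN with ACSS2 and for SCD with the epithelial mean, 0.00417 for FASN with SCD and for ACSS2 with SCD, and 0.00278 for FASN and ACSS2 with the epithelial mean. For Spearman's rho 0 of 40 passed, with a lowest adjusted exact p of 0.0556, while 10 had an unadjusted p under 0.05. The unadjusted exact p of rho was 0.00278 for FASN with ACSS2 and for SCD with the epithelial mean, and 0.0167 for the other 4. Without the 2 arrays farthest from the median, r over 4 arrays was 0.93, 0.97 and 0.99 for the 3 pairs of enzymes, and 0.95, 0.98 and 0.98 for FASN, ACSS2 and SCD with the epithelial mean.

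In healthy milk cells the same 3 pairs gave r of 0.68 for FASN with ACSS2, 0.65 for FASN with SCD and 0.91 for ACSS2 with SCD, with rho of 0.83, 0.54 and 0.60. In mastitis they gave 0.87, 0.92 and 0.71, with rho of 0.89, 0.60 and 0.83. None of these passed, with adjusted exact p of at least 0.0988 for r and 0.148 for rho, and whether the groups differ in these correlations was not tested. For SREBF1 in endometritis, r was 0.33 with FASN, 0.35 with ACSS2 and 0.34 with SCD (adjusted exact p = 0.603 for each). Its r with these 3 enzymes was 0.50 to 0.60 in mastitis and -0.09 to 0.50 in health, and no pair with SREBF1 passed in any group. In each group the lowest array was the same for FASN, ACSS2 and SCD: array 4 in mastitis, array 5 in endometritis and array 6 in health. For SREBF1 the lowest arrays were 4 in mastitis, 6 in endometritis and 5 in health.

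The genes whose pattern was most like the 5 members were sought among 6544 genes, by Pearson correlation of the deviations from the group means over 18 arrays. These values describe the arrays, share the cell content of each sample, and carry no test. The mean of the 5 members was most like RETREG1, a receptor for turnover of the endoplasmic reticulum, with r of 0.95 (0.90 without endometritis array 5), and IDH1, the cytosolic isocitrate dehydrogenase that yields NADPH, with r of 0.94 (0.89). ALOX15 (arachidonate 15-lipoxygenase) and FGFBP1 (a binding protein of fibroblast growth factors) had r of 0.92 each (0.81 and 0.83). PIGR, the receptor that carries immunoglobulin A across epithelia, and TFF3, a trefoil peptide of mucosal surfaces, had r of 0.91 each (0.82 and 0.80).

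For single members the closest genes differed. FASN was most like PIGR with r of 0.89 and MFGE8, a protein of the milk fat globule, with r of 0.88. ACSS2 was most like the homeobox factor IRX3 with r of 0.94 and RETREG1 with r of 0.93, and SCD was most like IDH1 and RETREG1 with r of 0.95 each. ACACA, which hardly rose above the floor, was most like RIPK4, a kinase of epithelial differentiation, with r of 0.87 and the tight junction gene CLDN3 with r of 0.86. SREBF1 reached lower values, 0.77 each for MTARC2, a mitochondrial reductase, and NSA2, a ribosome assembly factor. Its top genes differed little without endometritis array 5, at 0.78 and 0.77.

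Beyond the 5 members, 90 genes of 9 lists around fatty acid synthesis were read. In mastitis against health 22 were called lower, 7 higher and 61 did not pass. Among all 9155 genes 15.8% were called lower and 11.3% higher. The median difference was -0.11 over the 90 genes and -0.01 over all genes. The counts moved with the settings: 6 were lower and 3 higher with the GAPDH gap as a covariate, and 12 were lower with arrays scaled to the hybridisation controls. The share of all genes called under those settings is not given here, so these shifts are not read as results about the pathway.

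Supply of acetyl-CoA and NADPH was lower at 4 of 8 genes in mastitis against health, with 0 higher and a list median of -0.56. IDH1 averaged 5.74 ± 0.81 in mastitis and 10.66 ± 0.92 in health (SD, n = 6 each), a difference of -4.92 ± 0.64 (limma adjusted p = 0.000121) at 2 of its 3 probe sets. ACSS1, the mitochondrial acetyl-CoA synthetase, differed by -2.0 ± 0.48 (limma adjusted p = 0.00732), the citrate carrier SLC25A1 by -1.25 ± 0.31 (limma adjusted p = 0.00918) and citrate synthase CS by -1.07 ± 0.36 (limma adjusted p = 0.0449, 1 of 2 probe sets). ACLY, the ATP citrate lyase that makes acetyl-CoA from citrate in many non-ruminant tissues, averaged 5.63 ± 0.62 in mastitis and 5.68 ± 0.68 in health and did not pass. That value is named after it was seen.

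Among 7 relatives and regulators of acetyl-CoA carboxylase, 2 were higher in mastitis than in health and 0 lower, with a list median of -0.01. MID1IP1, which promotes polymerisation of the carboxylase in mice, differed by 1.72 ± 0.39 (limma adjusted p = 0.00547). PRKAA1, a catalytic subunit of the AMP-activated kinase that inhibits the carboxylase, differed by 1.15 ± 0.30 (limma adjusted p = 0.013). ACACB, the mitochondrial carboxylase isoform, and THRSP, a lipogenic protein related to MID1IP1 that is named after its values were seen, were at background in both groups.

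SREBP processing, the set of proteins that hold back, escort and cleave the SREBP precursors, had 0 of 7 genes called by limma in mastitis against health, with 1 at an unadjusted p under 0.05 and a list median of -0.14. INSIG1, which retains SREBP in the endoplasmic reticulum, averaged 7.85 ± 0.38 in mastitis, 9.02 ± 0.81 in endometritis and 8.72 ± 0.56 in health. It differed by -0.87 ± 0.34 between mastitis and health (limma adjusted p = 0.0948) and fell by 1.17 ± 0.34 on the log2 scale in mastitis against endometritis (limma adjusted p = 0.0321). SREBF2, the gene of the sterol-directed SREBP, differed by -0.20 ± 0.16 in mastitis against health (limma adjusted p = 0.465).

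Desaturation and elongation had 3 of 11 genes lower in mastitis against health and 0 higher, with a list median of -0.22. Electron carriers that serve the desaturase were among them: CYB5R3, a cytochrome b5 reductase, differed by -1.82 ± 0.31 (limma adjusted p = 0.000711) and cytochrome b5, CYB5A, by -1.40 ± 0.36 (limma adjusted p = 0.0118). TECR, a reductase of chain elongation, differed by -0.55 ± 0.17 (limma adjusted p = 0.0374).

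Of 13 lipogenic regulators 3 were higher and 1 lower in mastitis against health, with a list median of 0.03. USF1, a basic helix-loop-helix factor known to bind the FASN promoter in rodents, differed by 1.38 ± 0.23 (limma adjusted p = 0.000586), the CCAAT-binding subunit NFYA by 0.49 ± 0.08 (limma adjusted p = 0.000416) and the retinoid receptor RXRA by 1.64 ± 0.46 (limma adjusted p = 0.0198). The coactivator PPARGC1A was at background in mastitis and at least 1.43-fold lower there, at 1 of 4 probe sets (limma adjusted p = 0.0446).

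The mitochondrial route of fatty acid synthesis, a separate pathway that also makes lipoic acid, had 4 of 9 genes lower and 0 higher in mastitis against health, with a list median of -0.39. CBR4 and HSD17B8, known in human cells as subunits of its ketoacyl reductase, differed by -1.60 ± 0.33 and -1.78 ± 0.37 (limma adjusted p = 0.0029 and 0.00312). The acyl carrier protein NDUFAB1 differed by -1.0 ± 0.31 at 1 of 2 probe sets, and the lipoic acid synthase LIAS by -0.52 ± 0.17 (limma adjusted p = 0.0315 and 0.0454). Fatty acid oxidation, the opposing pathway, had 2 of 10 genes lower and 0 higher, with a list median of -0.05. Its dehydrogenases HADH and ACADM differed by -2.11 ± 0.43 and -1.09 ± 0.28 (limma adjusted p = 0.0026 and 0.0109).

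Fatty acid uptake and triglyceride assembly moved both ways, with 4 of 15 genes lower and 2 higher in mastitis against health and a list median of -0.22. FABP3, a fatty acid binding protein, averaged 6.13 ± 0.91 in mastitis and 12.46 ± 0.92 in health, a difference of -6.33 ± 0.72 (limma adjusted p = 4.67e-05). GPAM, the mitochondrial acyltransferase that starts glycerolipid synthesis, averaged 3.03 ± 0.47 in mastitis and 9.18 ± 1.67 in health, a difference of -6.15 ± 0.88 (limma adjusted p = 0.000244). LPL, the lipase that frees fatty acids from blood lipoproteins, differed by -2.54 ± 0.41 (limma adjusted p = 0.000523). DGAT2, which adds the last acyl group to a triglyceride, went the other way, with 6.35 ± 0.99 in mastitis and 2.81 ± 0.32 in health, a difference of 3.54 ± 0.37 (limma adjusted p = 2.71e-05). The acyl-CoA synthetases ACSL5 and ACSL1, named after their values were seen, differed by 2.86 ± 0.63 and -2.01 ± 0.44 (limma adjusted p = 0.00428 and 0.00423).

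Cholesterol synthesis and the LDL receptor had 4 of 10 genes lower in mastitis against health and 0 higher, with a list median of -0.96. The sterol reductase DHCR7 differed by -1.72 ± 0.40 (limma adjusted p = 0.00673). The farnesyl diphosphate synthase FDPS differed by -0.98 ± 0.28, and the mevalonate enzymes MVD and PMVK by -0.53 ± 0.17 and -0.94 ± 0.30 (limma adjusted p = 0.0198, 0.0376 and 0.0378). The same change of neutrophil and epithelial markers given above stands beside these lists, and its part in them was not tested.

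**Figure D4:**
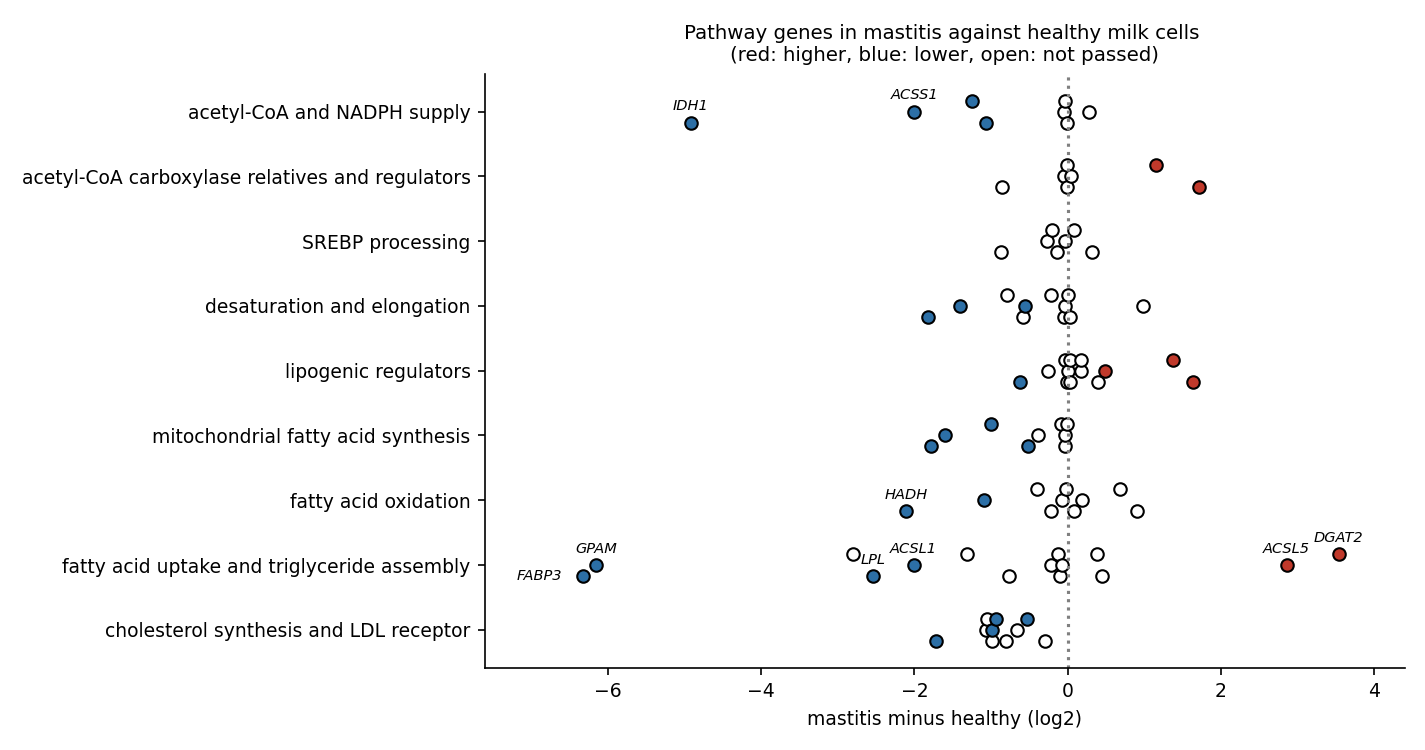
Difference in log2 normalised intensity between mastitis and health (x axis) for 90 genes in 9 lists (rows), with 1 point per gene, filled blue or red where it was called lower or higher and open where it did not pass; vertical offsets only separate points, and genes called with a difference beyond 1.9 are named. FABP3, GPAM and IDH1 lie far to the left, between -6.33 and -4.92, and DGAT2 and ACSL5 to the right, at 3.54 and 2.86.

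In endometritis against health, 0 of the 90 genes were called by limma, with a median difference of 0.02. An unadjusted limma p under 0.05 was found for 4 of the 90, beside 4.36% of all probe sets. This count is therefore not read as a result about the pathway. The 4 were the citrate carrier SLC25A1 at -0.84 ± 0.31, the synthetase ACSL3 at 0.55 ± 0.20, PPARGC1A at -0.55 ± 0.21 and the phosphomevalonate kinase PMVK at -0.71 ± 0.30. PPARGC1A averaged 2.52 in endometritis, close to the floor. In mastitis against endometritis 18 of the 90 were called lower and 7 higher, beside 10.9% and 9.14% of all genes, with a median of -0.18. Scaling to the hybridisation controls left 9 lower, and 4 were higher in a fit of the 12 arrays of these groups. No share over all genes is given for either setting. IDH1 differed by -4.51 ± 0.64, FABP3 by -5.61 ± 0.72, GPAM by -5.39 ± 0.88 and LPL by -2.82 ± 0.41, and DGAT2 by 3.71 ± 0.37 (limma adjusted p = 0.000304, 0.000152, 0.000889, 0.000352 and 2.55e-05). CPT2, a carnitine transferase of oxidation, and SQLE, the squalene epoxidase, were called in this comparison and not in mastitis against health, at -0.59 ± 0.18 and -1.26 ± 0.39 (limma adjusted p = 0.0333 and 0.0395). Whether they differ between the 2 comparisons was not tested.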

How the data were processed

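RNA from milk cells was extracted with TRI reagent, treated with DNase and kept at an integrity number above 6, per the labels' protocols. From 100 ng of RNA, labelled RNA was made with a 3′ IVT kit, and 10 µg were hybridised to Affymetrix bovine genome arrays. RMA, GCRMA and limma appear in the submitters' processing notes, without roles. The normalisation method was not given in the sources used here, nor the log base. The values were used as log2 intensities as the authors deposited them, a reading on which every fold rests. The table held 24128 probe sets, of which 112 controls were left out, and 0 columns belonged to no sample. By the platform annotation, 13292 probe sets had 1 gene, 86 had several and 10638 had none. Without a named genome build, coordinates are left out.

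All 18 arrays entered 1 limma 3.58.1 model in R 4.3.3 with a term per group (15 residual and 0.561 prior degrees of freedom), tested on simulated data. P-values were two-sided. The brightest probe set over all arrays stood for each gene outside the members, and for ACACA and SREBF1 where 1 value per gene was needed. Marker fits subtracted the mean of the marker genes on each array from every probe set before the same fit. Single values were tested by exact permutation over all arrangements, and scipy 1.17.1 gave the ranks and the Benjamini-Hochberg adjustment of these tests where one was made. The precision is limited by the 6 cows in each group.

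Groups came from the labels. The members and the gene lists were chosen with earlier results of these data known. Named from each list were up to 4 genes per comparison with the smallest p. For likeness, the 6 genes most like the mean of the members and the 2 most like each member were named. The alternatives were a filter on dim probe sets, a fit of 12 arrays, array weights, a trended robust variance, quantile normalisation, median centring, scaling to hybridisation controls, a GAPDH covariate, the number in the sample title (up to 120 or above) as a block, the mean of all probe sets of a gene, a milk protein reference, Spearman's rho and leaving out each array.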

Additional observations from a re-analysis of the deposited data

Results flagged for a closer look

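Each group of 6 arrays was searched for a highest or lowest array standing apart from the rest, by Dixon's test of the gap to the next array divided by the range. Of 20 groups of arrays at member probe sets above background, 5 held such an array, where chance gives about 1 in 20. FASN on endometritis array 5 was 7.32, against 10.47 to 11.89 on the other 5, a gap of 0.69 of the range. At the dimmer ACACA probe set endometritis array 3 read 2.70 against 2.43 to 2.5 (0.73 of the range), and healthy array 4 read 2.65 against 2.43 to 2.48 (0.75 of the range). At the second brightest SREBF1 probe set mastitis array 4 read 4.44 with all others at 4.42 (1.0 of the range), and healthy array 3 read 4.87 against 4.36 to 4.42 (0.89 of the range). The last 4 are small steps above the floor of their probe sets, where most arrays share nearly the same value. The rate of 1 in 20 holds for normally spread values, so 5 of 20 is not read as an excess.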

How the results depend on the processing

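The calls of FASN, ACSS2 and SCD in mastitis against health held in all 28 alternatives, with differences of -5.73 to -4.98 for FASN, -6.16 to -4.53 for ACSS2 and -6.59 to -5.20 for SCD. The SREBF1 call in mastitis against endometritis held in 28, from -1.43 to -0.30, the smallest being the mean of its 4 probe sets. The cause of the following shifts was not tested. Pathway genes lower in mastitis against health numbered 12 under hybridisation scaling and 6 with the GAPDH covariate, and those higher numbered 3 with that covariate. In mastitis against endometritis, 9 were lower under hybridisation scaling and 4 higher in the fit of 12 arrays and with array weights. Without the share of all genes called under each setting, these pathway counts are not read as results about the pathway. With the milk protein reference, 0 members were called lower in mastitis against health or endometritis, beside 0.0291% and 0.0167% of all probe sets. Against endometritis 2 were called higher on that scale, beside 99.8% of all probe sets, and ACSS2 was 0.22. With the mean of all probe sets, 2 were called higher against endometritis relative to the epithelial mean. No share over all genes is given for that setting, so this count is not read as a result about the members. In endometritis against health, array weights called 2 members lower and 3 higher relative to the epithelial mean, with no share over all probe sets to set beside them. FASN on that scale was -5.1e-05 under quantile normalisation, -0.28 with the milk protein reference and -0.11 to 0.43 with arrays left out. FASN itself was -0.69 to 0.22, and ACACA -0.06 to 0.11, with arrays left out, and ACACA was -0.02 when median-centred. Changes relative to SREBF1, averaged over probe sets, were -0.08 for ACACA in mastitis against health, -0.18 in endometritis against health and 0.11 in mastitis against endometritis. With arrays left out, ACACA was -0.02 to 0.24 in mastitis against health, and in endometritis against health FASN was -1.43 to -0.55, ACSS2 -2.05 to -1.05 and SCD -2.09 to -1.06. FASN was -1.22 there under quantile normalisation (adjusted p = 0.0317). Correlations past the threshold numbered 0 for Spearman's rho and 0 to 7 with arrays left out. With 5 arrays left in a group, the smallest exact p is 0.00833. No paired analysis was possible because the labels give no replicate numbers shared between groups. Values near the floor limit ACACA in all groups and ACSS2 in mastitis.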
